A study of Homo sapiens with 3 samples.

Results

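A set of 10 genes that act in cAMP signalling or answer to it were followed in MDA-MB-231 cells after 3 h with vehicle, estradiol or tamoxifen: PDE4B, PDE4D, PDE10A, CREM, SIK1, GEM, RGS2, CREB1, CRTC2 and CRTC3. Every probe set that the platform annotation assigns to exactly 1 symbol, that symbol being 1 of these 10 genes, was taken as a member. This gave 32 probe sets for the 10 genes, out of 41097 such probe sets for 19775 genes. The genes were selected on textbook roles and on the differences from vehicle that these same arrays show, so the values below are a description and carry no test. On the brightest probe sets of each gene the largest differences were those of GEM and PDE10A, which were higher with both ligands than with vehicle. CREM and the brighter SIK1 probe set lay above vehicle by less, and the CREB coactivator genes CRTC2 and CRTC3 stayed within 1.5-fold of it.

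MDA-MB-231 is an established human breast cancer line of basal type, commonly classed as estrogen receptor negative, and it was the only line used. All cultures first spent 4 h in medium with 10% charcoal-stripped serum, a serum depleted of steroids. They were then kept for 3 h with 0.1% ethanol as vehicle, with 1 µM estradiol, the main natural estrogen, or with 1 µM tamoxifen, an antiestrogen, and the labels do not say which solvent the ligand cultures received. The labels give 1 sample for each of the 3 groups, so there is no replicate, and no SD, interval or p-value can be given for any difference.

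Cyclic AMP is made by adenylyl cyclases downstream of G protein-coupled receptors and activates protein kinase A, which phosphorylates the transcription factor CREB. CREB acts with CRTC coactivators, which salt-inducible kinases such as SIK1 hold in the cytoplasm, at a DNA element called the cAMP response element (CRE). Several of its induced genes limit the same signal: phosphodiesterases of the PDE4 family degrade cAMP, SIK1 acts on the coactivators, and an internal promoter of CREM gives the short repressor ICER, which binds CREs without activating them.

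CRE letters were looked for in the RefSeq promoter windows (GRCh38.p14) of the members, because CRE-bearing promoters are what textbook CREB targets share. From the table of such windows, 27 were searched for 8 of the 10 members. Each had 300 bases, 250 before and 50 after an annotated start. No windows of GEM and CRTC2 were used, so nothing is said about CRE letters at either gene. The full CRE, TGACGTCA, and its core, TGACG or the reverse complement CGTCA, were searched on both strands, and each full CRE also holds both forms of the core. A core was found in 7 of the 27 windows (25.9%), against 24.6% of all 35116 windows in the table. A full CRE was found in 2 of the 27, both of CREM, against 1.85% of all windows. These 2 windows overlap and hold the same CRE, which begins at position 3 from the one internal start and at position -50 from the other, counted from 1 at the start and -1 just before it. SIK1 had 3 cores, beginning at -217, -137 and -126, and RGS2 had 1, beginning at -181. PDE10A, with the largest differences from vehicle among the 8 members on their brightest probe sets, had no core in either of its 2 windows, and PDE4B had none in its 6. A match describes these letters in this window and shows no binding, and a window without a match says nothing about CREB at that gene. The 250 bases before the start are shown for SIK1 and RGS2, and for the outer PDE10A window as a contrast, 5′ to 3′ in the direction of the gene, with CRE letters in capitals.
SIK1, chr21:43427132-43427381, - strand: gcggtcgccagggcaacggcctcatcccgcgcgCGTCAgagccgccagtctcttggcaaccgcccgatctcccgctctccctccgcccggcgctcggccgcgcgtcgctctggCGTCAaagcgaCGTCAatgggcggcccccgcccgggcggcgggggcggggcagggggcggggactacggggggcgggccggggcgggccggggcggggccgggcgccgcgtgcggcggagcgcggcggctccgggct
RGS2, chr1:192808789-192809038, + strand: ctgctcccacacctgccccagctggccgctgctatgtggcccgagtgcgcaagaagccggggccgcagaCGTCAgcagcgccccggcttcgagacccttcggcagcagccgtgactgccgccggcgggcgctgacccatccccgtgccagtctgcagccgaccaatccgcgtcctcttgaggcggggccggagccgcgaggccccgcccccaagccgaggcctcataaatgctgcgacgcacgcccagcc
PDE10A, chr6:165663242-165663491, - strand: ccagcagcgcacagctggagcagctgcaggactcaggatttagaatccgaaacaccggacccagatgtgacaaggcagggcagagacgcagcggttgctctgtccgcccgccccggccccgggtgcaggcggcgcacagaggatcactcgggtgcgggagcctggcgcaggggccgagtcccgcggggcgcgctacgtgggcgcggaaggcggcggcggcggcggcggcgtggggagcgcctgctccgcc
For CREM, PDE4D and CRTC3, stretches of 30 bases around each match are shown, so that the full CRE at the internal CREM starts can be set beside the cores that stand alone.
CREM upstream start, site A, chr10:35127036-35127065, + strand: accgcatcacagcTGACGtgaggactacgt
CREM upstream start, site B, chr10:35127146-35127175, + strand: cgtccgtaatcagTGACGaggtccgctacg
CREM internal starts, chr10:35195841-35195870, + strand: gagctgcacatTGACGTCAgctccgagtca
PDE4D, chr5:59587666-59587695, - strand: tagagggccccctTGACGccagcacatccc
CRTC3, chr15:90529729-90529758, + strand: cactttgtcgggcTGACGggggtccctcca

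**Figure D1:**
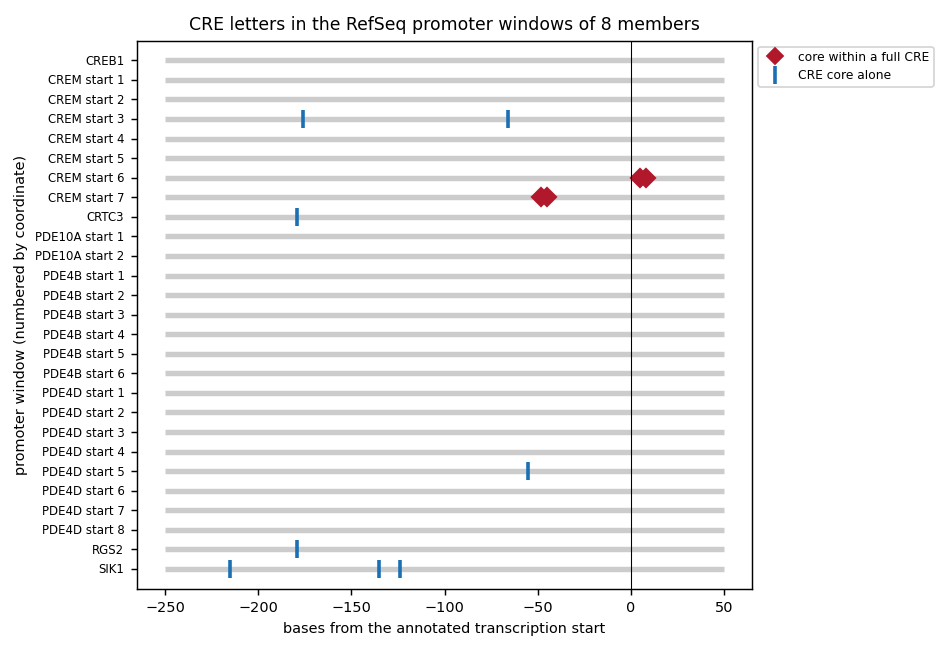
Positions of CRE letters in the 27 promoter windows of 8 members, in bases from the annotated start (horizontal axis), 1 window per row. Red diamonds are cores within a full CRE and blue bars are cores alone; the only full CRE lies at the internal CREM starts, and SIK1 shows 3 cores.

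The deposited values were taken as log2 values centred on a baseline that the sources used here do not give. They therefore show how a probe set differed between the 3 columns and not how abundant a transcript was. That the values are on the log2 scale, and that higher means more RNA, was assumed. The spread over the 12072 genes kept for comparison was 0.20 (SD) in the vehicle column, against 0.49 with estradiol and 0.49 with tamoxifen. The vehicle value was therefore also doubled as an alternative. The baseline cancels as deposited only if all columns share its scale. With the vehicle doubled it cancels only if the vehicle values had been divided by 2. The brightness reading described next treated the vehicle values as divided by 2, while the differences as deposited take them as they stand. Which version lies closer to the true difference was not tested. Brightness was read from the binary rounding of the values, and a probe set was called above the floor when it lay in the band of log2 levels from 4 to 8 or brighter. Of the 32 member probe sets, 6 lay in the band of 8 or more, 17 between 4 and 8, 4 between 2 and 4 and 5 below 2, which puts 23 above the floor. All 10 genes had at least 1 probe set above it. Checked against markers of the line, 6 of 7 basal markers lay above the floor, all in the brightest band, against 2 of the 5 luminal and 1 of the 4 leukocyte markers that have a probe set of their own, and 3 of 6 fibroblast and endothelial markers. Among the markers of these other cell types, ESR1 with tamoxifen (-0.70) was the 1 that differed from vehicle past 1.5-fold. Of 9 reference genes, 3 were past 1.5-fold with each ligand (list medians 0.18 and 0.11), all higher than with vehicle. These were HPRT1 (0.71 with estradiol and 0.78 with tamoxifen), B2M (0.60 and 0.71) and PGK1 (0.83 and 0.95). The poly-A spikes, control RNAs added before labelling, stood above their vehicle values by a median of 1.04 on the estradiol array (24 probe sets) and of 0.87 on the tamoxifen array, while the 18 hybridisation spike probe sets differed by 0.18 and 0.10. Their part in the differences from vehicle below was not tested.

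**Figure D2:**
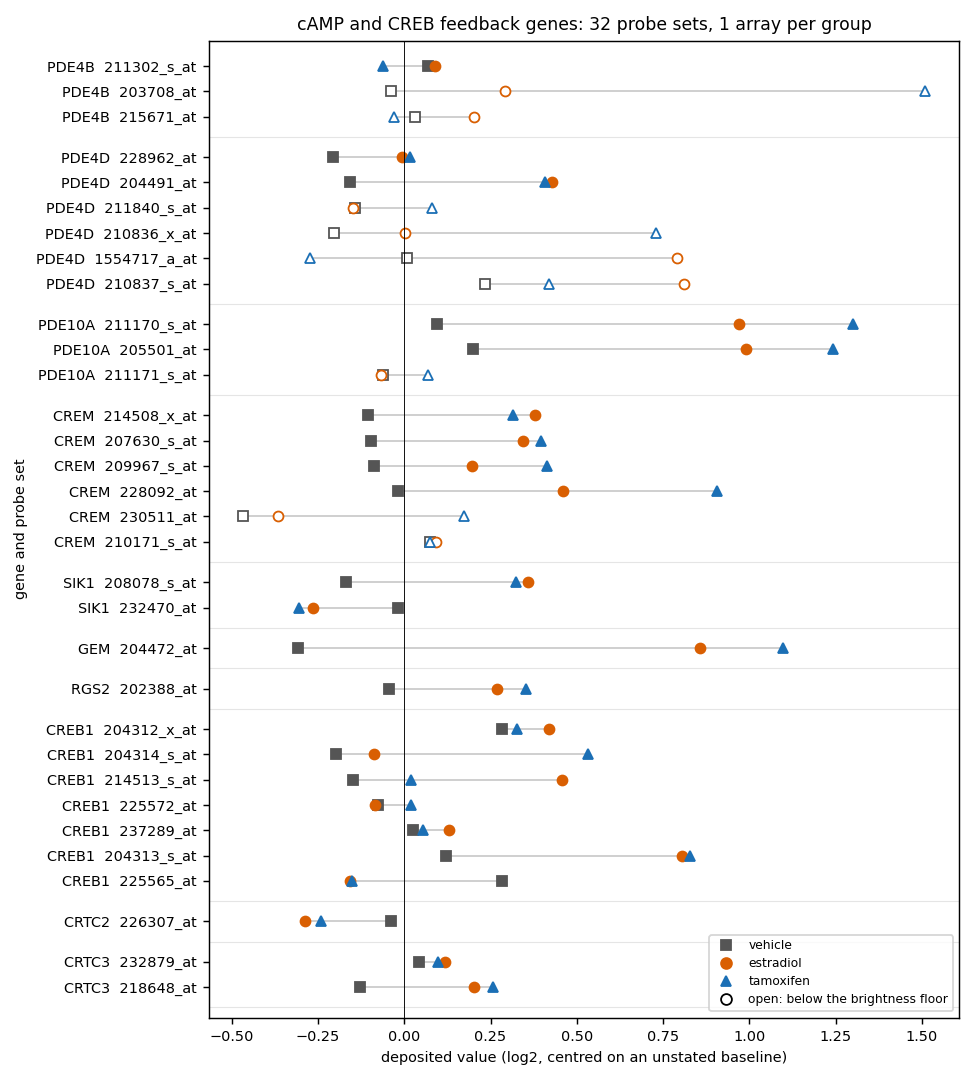
Deposited value (log2, centred on an unstated baseline) of each of the 32 member probe sets in the vehicle (grey squares), estradiol (orange circles) and tamoxifen (blue triangles) columns; open symbols lie below the brightness floor. GEM and 2 of the 3 PDE10A probe sets show both ligand values far above vehicle, and PDE4B 203708_at shows tamoxifen alone at 1.51.

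PDE10A encodes a phosphodiesterase that degrades both cAMP and cGMP. Its brightest probe set, 211170_s_at, read 0.09 with vehicle, 0.97 with estradiol and 1.30 with tamoxifen. A second probe set above the floor, 205501_at, read 0.20, 0.99 and 1.24 in the same order. Both therefore put the 2 ligands well above vehicle, with tamoxifen the highest. The estradiol minus vehicle differences were 0.88 and 0.79 on the log2 scale, or 1.83-fold and 1.73-fold. The tamoxifen minus vehicle differences were 1.21 and 1.04, or 2.31-fold and 2.06-fold. With the vehicle doubled they were 0.78 and 0.59 for estradiol and 1.11 and 0.84 for tamoxifen. The third probe set, 211171_s_at, lay below the floor and read -0.06, -0.07 and 0.07, so it showed no such step. Names ending in _s_at, _x_at or _a_at mark probe sets whose probes can match more than 1 transcript.

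PDE4D and PDE4B encode cAMP-specific phosphodiesterases with many isoforms from separate promoters. Of the 6 PDE4D probe sets, 204491_at read -0.16 with vehicle, 0.43 with estradiol and 0.41 with tamoxifen. Its difference of 0.59 with estradiol was just past the 1.5-fold rule and that of 0.57 with tamoxifen just short of it. The other PDE4D probe set above the floor, 228962_at, read -0.21, -0.01 and 0.02, with differences of 0.20 and 0.22. Both thus gave the 2 ligands nearly the same value, above vehicle. The 4 PDE4D probe sets below the floor did not share a pattern. The 1554717_a_at probe set was high with estradiol alone, at 0.79 against 0.01 with vehicle and -0.27 with tamoxifen. The 210836_x_at probe set was high with tamoxifen alone, at 0.73 against -0.20 and 0.00. The other two read 0.23, 0.81 and 0.42 (210837_s_at) and -0.14, -0.15 and 0.08 (211840_s_at) with vehicle, estradiol and tamoxifen.

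For PDE4B the probe sets disagreed. The 1 above the floor, 211302_s_at, read 0.07 with vehicle, 0.09 with estradiol and -0.06 with tamoxifen, and its differences were 0.02 and -0.13. Probe set 203708_at, in the band of 2 to 4 and so below the floor, read -0.04, 0.29 and 1.51. Its tamoxifen value stood 1.55 above vehicle and 1.22 above estradiol, or 2.92-fold and 2.32-fold, and this was the largest difference from vehicle among the 32 probe sets. The remaining probe set, 215671_at, below the floor, read 0.03, 0.20 and -0.03. Whether PDE4B RNA differed between the groups is therefore not settled by these arrays. Of all named probe sets below the floor, 4.10% were at least 1.5-fold higher with tamoxifen than with vehicle and 4.90% than with estradiol.

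CREM encodes a relative of CREB whose isoforms activate or repress CRE-driven genes. All 4 of its probe sets above the floor were lower with vehicle than with either ligand. The 228092_at probe set read -0.02 with vehicle, 0.46 with estradiol and 0.91 with tamoxifen, and its tamoxifen difference of 0.92 (1.90-fold) was the 1 CREM difference above the floor past the 1.5-fold rule. Over the 4 probe sets the differences ran from 0.28 to 0.48 with estradiol and from 0.42 to 0.92 with tamoxifen. Their mean was 0.42 with estradiol and 0.58 with tamoxifen, the latter just short of the rule, and 0.50 and 0.66 with the vehicle doubled. Of the 2 probe sets below the floor, 230511_at read -0.47, -0.37 and 0.17, and 210171_s_at read 0.07, 0.09 and 0.08. The files do not say which CREM isoforms a probe set detects, so the internal promoter shown above could not be followed separately.

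SIK1 encodes the salt-inducible kinase that phosphorylates CRTC proteins. Its bright probe set, 208078_s_at, read -0.17 with vehicle, 0.36 with estradiol and 0.32 with tamoxifen. The differences of 0.53 and 0.49 (1.44-fold and 1.41-fold) were under the rule as deposited and past it with the vehicle doubled (0.69 and 0.66). The second probe set, 232470_at, also above the floor, went the other way at -0.02, -0.27 and -0.30, with differences of -0.25 and -0.29. The 2 SIK1 probe sets thus had opposite signs with both ligands, and the value given for the gene is that of the brighter one.

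GEM encodes a small GTPase of the RGK family that inhibits voltage-gated calcium channels and is a known early-induced gene. Its single probe set, 204472_at, read -0.31 with vehicle, 0.86 with estradiol and 1.10 with tamoxifen. It was the member gene with the largest differences, 1.16 with estradiol (2.24-fold) and 1.40 with tamoxifen (2.65-fold), and 1.47 and 1.71 with the vehicle doubled. Counted from the largest of the 12072 genes above the floor, GEM stood at place 77 with estradiol and 32 with tamoxifen. PDE10A stood at 215 and 65.

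RGS2 encodes a protein that speeds GTP hydrolysis by Gq-type alpha subunits and so shortens receptor signals. Its single probe set, 202388_at, read -0.04 with vehicle, 0.27 with estradiol and 0.35 with tamoxifen. Its differences of 0.31 and 0.40 kept the order of GEM and PDE10A, with vehicle lowest and tamoxifen highest, and stayed under 1.5-fold, also with the vehicle doubled (0.36 and 0.44).

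CREB1 encodes CREB itself, and its 7 probe sets, all above the floor, did not move together. The brightest, 204312_x_at, which stands for the gene, read 0.28 with vehicle, 0.42 with estradiol and 0.33 with tamoxifen. Its differences of 0.14 and 0.04 became -0.14 and -0.24 with the vehicle doubled. Probe set 204313_s_at was higher with both ligands, at 0.12, 0.80 and 0.83, with differences of 0.68 and 0.71. Probe set 225565_at was lower with both, at 0.28, -0.16 and -0.15, with differences of -0.44 and -0.43. One more, 214513_s_at, was past the rule with estradiol alone (0.60 against 0.17 with tamoxifen), and 204314_s_at with tamoxifen alone (0.73 against 0.11 with estradiol). The other two, 225572_at and 237289_at, lay between -0.01 and 0.10 of vehicle with both ligands. The differences of the 7 thus ran from -0.44 to 0.68 with estradiol and from -0.43 to 0.73 with tamoxifen, on both sides of 0.

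CRTC2 and CRTC3 encode the coactivators that enter the nucleus and join CREB when SIK activity falls. The single CRTC2 probe set, 226307_at, in the brightest band, read -0.04 with vehicle, -0.29 with estradiol and -0.24 with tamoxifen. Its differences of -0.25 and -0.20 put CRTC2 below vehicle with both ligands, also with the vehicle doubled (-0.21 and -0.17). CRTC3 read 0.04, 0.12 and 0.10 on its brightest probe set, 232879_at, and -0.13, 0.20 and 0.26 on 218648_at, so its differences were 0.08 and 0.06 on the one and 0.33 and 0.39 on the other. No CREB1, CRTC2 or CRTC3 gene value reached 1.5-fold in any of the 3 comparisons.

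**Figure D3:**
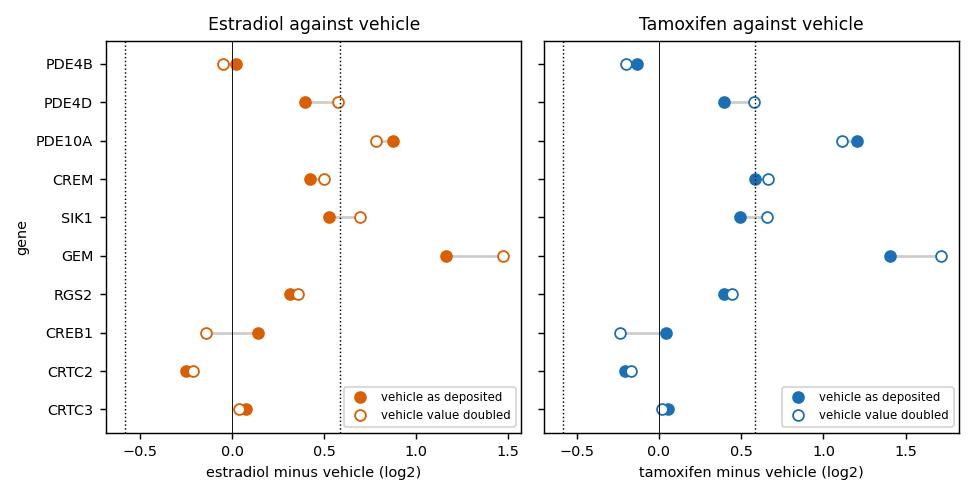
Difference from vehicle (log2) of each member gene with estradiol (left) and tamoxifen (right), with the vehicle as deposited (filled) and doubled (open); dotted lines mark 1.5-fold. GEM and PDE10A lie past the upper line in both versions, and when the vehicle is doubled SIK1 crosses it with both ligands and CREM with tamoxifen.

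With 1 value per gene, that of its brightest probe sets, 2 of the 10 genes (GEM and PDE10A) were at least 1.5-fold higher with estradiol than with vehicle and 0 were lower. Of all 12072 genes above the floor, 5.83% were that much higher and 2.65% lower. The same 2 genes were past the rule with tamoxifen, and 0 were lower, against 6.97% higher and 4.32% lower of all genes. The median over the 10 genes was 0.35 with estradiol and 0.40 with tamoxifen, against 0.02 and 0.02 over all genes. With the vehicle doubled 3 genes passed the rule upward with estradiol, where SIK1 joined, and 4 with tamoxifen, where CREM and SIK1 joined, against 4.39% and 7.13% of all genes. None was lower in that setting, against 1.93% and 3.64% of all genes. Counted by probe set, 6 of the 23 above the floor were past the rule upward with each ligand and 0 downward, against 7.00% and 8.20% upward and 4.61% and 5.95% downward of all named probe sets above the floor. With the vehicle doubled 7 were past it upward and 1 downward with estradiol, and 10 upward and 1 downward with tamoxifen, the downward 1 being CREB1 225565_at (-0.72 and -0.71). All named probe sets above the floor then had 4.94% and 8.44% upward and 3.43% and 5.17% downward. Since the genes were selected on these differences, nothing is read from these shares, and both comparisons use the same vehicle values.

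**Figure D4:**
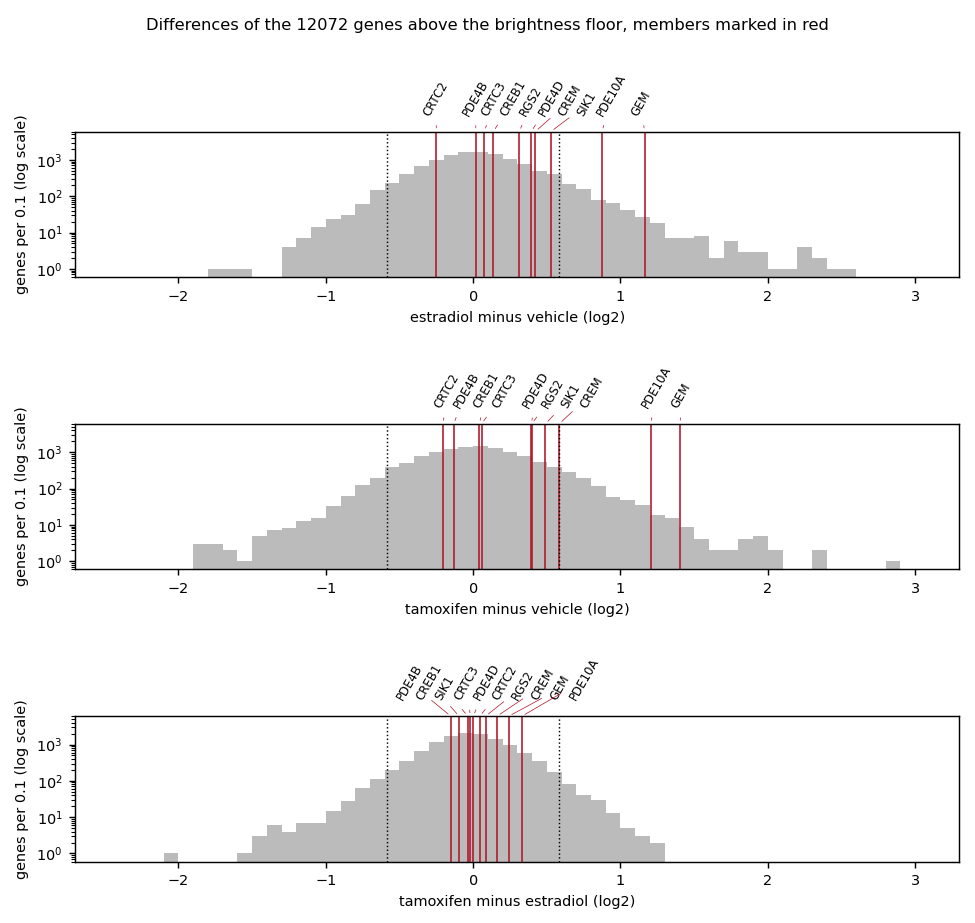
Number of genes (log axis) by difference in bins of 0.1 log2, for each ligand against vehicle and for tamoxifen against estradiol, over the 12072 genes above the floor; red lines are the 10 members and dotted lines mark 1.5-fold. GEM and PDE10A stand in the upper tail of both vehicle comparisons, and all 10 members lie between -0.15 and 0.33 in the direct comparison of the ligands.

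Tamoxifen and estradiol were also compared directly, which leaves the vehicle values out. The largest of the 10 gene differences were those of PDE10A (0.33), GEM (0.24) and CREM (0.16), all higher with tamoxifen, and the smallest that of PDE4B (-0.15). None of the 10 reached 1.5-fold, against 1.57% of all genes higher and 2.20% lower. The median was 0.02, against -0.02 over all genes. By probe set, 1 of the 23 above the floor was past the rule, CREB1 204314_s_at (0.62), against 2.34% higher and 2.70% lower. Both PDE10A probe sets above the floor lay on the tamoxifen side (0.33 and 0.25), as did 3 of the 4 of CREM, of which 228092_at had the largest difference at 0.44. Below the floor PDE4B 203708_at (1.22) and PDE4D 210836_x_at (0.73) were higher with tamoxifen past the rule, and PDE4D 1554717_a_at was lower (-1.06). Of all named probe sets below the floor 4.90% were past it upward and 5.02% downward.

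The rest of the pathway was described from 8 lists of 98 genes in all, of which 69 lay above the floor. With estradiol 9 of the 69 were at least 1.5-fold higher than with vehicle and 2 lower, and with tamoxifen 13 were higher and 4 lower. Over all genes above the floor the shares were 5.83% higher and 2.65% lower with estradiol, and 6.97% and 4.32% with tamoxifen. The lists were chosen with earlier results of these data known, so nothing is read from these counts or shares. The medians of the 69 genes were 0.05 and 0.04, against 0.02 and 0.02 over all genes, and with the vehicle doubled 0.18 and 0.24, against 0.07 and 0.06. Among 6 adenylyl cyclases, the enzymes that make cAMP, 0 passed the rule with either ligand, and the largest differences were those of ADCY1 (-0.38 with estradiol, 0.10 with tamoxifen) and ADCY8 (0.00 and -0.32). Among 10 G protein alpha subunits and receptors 3 were higher and 1 lower with each ligand. The adenosine receptor gene ADORA2B stood at 1.05 and 1.15, and the VIP receptor gene VIPR1 at 1.11 and 1.05. Neither of these 2 passed the rule with the vehicle doubled (0.43 and 0.53 for ADORA2B, 0.46 and 0.40 for VIPR1). The 1 lower was the G protein alpha subunit gene GNAI2, at -0.90 and -0.93, and at -1.04 and -1.07 with the vehicle doubled. In that version 1 gene of this list was higher with each ligand.

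Among the 11 other phosphodiesterases above the floor, 0 passed the rule with estradiol, while 3 were higher and 1 lower with tamoxifen. PDE7B, which encodes a cAMP-specific enzyme, stood at 0.35 with estradiol and 0.68 with tamoxifen, and PDE11A, which encodes a dual-substrate one, at -0.27 and -0.63. With the vehicle doubled PDE7B stood at 0.69 and 1.03 and PDE11A at -0.37 and -0.73. In that version 1 of the 11 was higher with estradiol and 0 were lower, and 3 were higher and 1 lower with tamoxifen. Of the 10 genes for protein kinase A subunits, its inhibitors and the cAMP-binding exchange factors, 1 was higher and 1 lower with estradiol and 2 were higher and 1 lower with tamoxifen. The catalytic subunit gene PRKACB stood at 0.64 and 1.05 and the regulatory subunit gene PRKAR1A at 0.36 and 0.64. With the vehicle doubled PRKACB was under the rule with estradiol (0.43) and past it with tamoxifen (0.84), and PRKAR1A was under it with both (0.05 and 0.34). Of the 11 CREB relatives, coactivators and other salt-inducible kinases, 0 passed it with either ligand, the furthest being SIK2 (0.06 and 0.47) and CREB3L1 (0.41 and 0.46). With the vehicle doubled 1 of these 11 passed it with estradiol and 3 with tamoxifen.

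The 12 other CREB-induced genes above the floor had median differences of 0.21 (estradiol) and 0.13 (tamoxifen), and of 0.29 and 0.19 with the vehicle doubled. Of these, 4 were higher and 0 lower with estradiol, and 4 were higher and 1 lower with tamoxifen. With the vehicle doubled 2 were higher and 0 lower with estradiol, and 2 higher and 1 lower with tamoxifen. The 2 furthest from vehicle were the nuclear receptor gene NR4A2 (1.04 and 1.79) and FOS, which encodes an AP-1 subunit (1.0 and 0.82). With the vehicle doubled they stood at 1.59 and 2.34 (NR4A2) and at 0.92 and 0.74 (FOS). DUSP1, the 1 lower with tamoxifen, stood at -0.21 and -0.59. Under the rule with both ligands were, among others, NR4A1 (-0.13 and 0.23) and EGR1 (0.16 and 0.04). Among 8 RGS relatives of RGS2, 1 passed the rule upward with each ligand, RGS4 (1.02 and 1.35), and RGS7 stood at -0.45 and -0.33. RRAD, the 1 RGK relative of GEM above the floor, stood at 0.54 and 0.52.

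**Figure D5:**
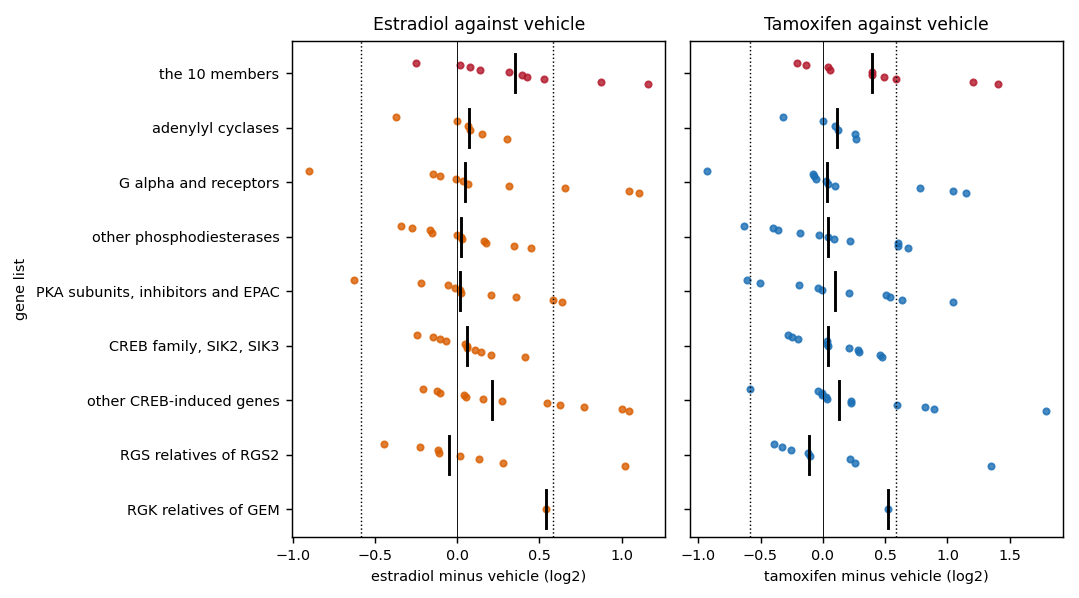
Difference from vehicle (log2) with estradiol (left) and tamoxifen (right) for the 10 members (red) and the genes of 8 pathway lists above the brightness floor, 1 point per gene; black bars are medians and dotted lines mark 1.5-fold. The member medians are 0.35 and 0.40, and those of the adenylyl cyclases 0.07 and 0.11.

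The 3 genes nearest to a member were found by the distance over its 2 differences from vehicle, a likeness that rests on 3 columns. Nearest to GEM were CD58 (1.18 with estradiol and 1.42 with tamoxifen), SNAI2 (1.20 and 1.42) and ATP10D (1.15 and 1.35). Nearest to PDE10A were P4HA1 (0.85 and 1.20), OTUD1 (0.88 and 1.26) and TSHZ1 (0.82 and 1.20). Nearest to CREM were ZSWIM6 (0.42 and 0.58), SLCO4A1 (0.41 and 0.58) and ITM2B (0.43 and 0.59).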

How the data were processed

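Biotin-labelled RNA of the 3 cultures was read on Affymetrix arrays, per the labels' protocols. The submitters' processing notes name RMA without a version. The deposited values, 54675 probe sets in 3 columns, were taken as log2 values centred per probe set on a baseline not given in the sources used here. Of the probe sets, 41097 had 1 symbol in the platform annotation, 1801 had several and 11777 were not listed; only the first were used.

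Brightness bands were read from the binary step of each value, since a single-precision level keeps coarser steps the higher it is. Values nearer 0 than 0.01, which are printed with fewer digits, were read within their printed precision. The vehicle steps were finer by 1 and were shifted, as for values divided by 2, which the differences as deposited do not assume. The floor held 105 of 117 ribosomal protein and 14 of 107 olfactory receptor probe sets. A gene took the mean of its probe sets in its brightest band. With 1 array per group no test was run, only differences and a 1.5-fold size rule. The number of arrays limits the precision.

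The members and gene lists were chosen with earlier results of these data known. Named were all members, the 2 genes per list furthest from vehicle, and the 3 genes nearest to each of the 3 members with the largest differences. GNAI2, DUSP1, NR4A1 and EGR1 were named outside this rule, to show values below or near vehicle in their lists. The band reading was tested on simulated data, exactly only for levels away from the band edges, so the floor itself was not checked. The size rule was tested there on 2-fold changes with the vehicle doubled, not as deposited. Python 3.11.15, numpy 2.4.6 and pandas 2.3.3 were used.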

Additional observations from a re-analysis of the deposited data

How the results depend on the processing

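No paired analysis was possible because each group has 1 sample, and no replicate could be left out. Over 225 member gene differences under the alternatives, 217 kept their side of the 1.5-fold rule and moved by less than 1.5-fold, 8 did not, and 0 that had passed the rule changed sign. Much of this agreement was fixed in advance. A gene takes its brightest probe sets, so dropping the floor (30 differences) or keeping only the brightest band (18) repeats the same values. Doubling the vehicle likewise leaves tamoxifen minus estradiol as it was. Averaging all probe sets cannot move GEM, RGS2 and CRTC2, which have 1 probe set each. PDE4D, GEM, RGS2, CRTC2 and CRTC3 kept the same values without the probe set types that may cross-react. All members but PDE4D kept theirs in the band reading without the correction for short decimals. Centring on column medians shifts all genes of a comparison equally. The 217 are therefore no measure of robustness. GEM and PDE10A were the only members that had passed the rule. The SIK1 values without the probe set types that may cross-react were those of its other probe set (-0.25 with estradiol and -0.29 with tamoxifen). In that setting CREM passed the rule with tamoxifen (0.92), so that 3 of 9 members were higher with it, and PDE4B had no probe set above the floor. Both ways of centring the columns, and the band reading without the correction for short decimals (added after seeing the data), left the counts of members and of pathway genes within 1.5 times. Without that correction PDE4D passed the rule with estradiol (0.59, against 0.39 with it), so that 3 members were higher with estradiol (2 with it).

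With the vehicle value doubled, 4 members were higher with tamoxifen (2 as deposited), and 1 pathway gene was lower with estradiol (2 as deposited). Averaging all probe sets left 1 member higher with estradiol, PDE10A then being at 0.55, and gave 7 pathway genes higher and 1 lower with tamoxifen, and 1 higher and 0 lower between the ligands. The 2-fold rule left 1 member higher with estradiol, 5 and 0 pathway genes higher and lower with estradiol, 5 and 0 with tamoxifen, and 0 and 0 between the ligands. With no brightness floor 4 pathway genes were higher and 4 lower between the ligands. With the brightest band only, which left 24 pathway genes, 5 were higher and 1 lower with estradiol, 7 and 2 with tamoxifen, and 1 and 1 between the ligands. Without the probe set types that may cross-react, which left 55 pathway genes, 5 were higher with estradiol.

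Signal over background limits the 9 member probe sets of PDE4B, PDE4D, PDE10A and CREM that lay below the floor. Lying above the floor does not show a signal over background for the other 23, of which 17 lay in the band from 4 to 8. The same floor held 14 of 107 olfactory receptor probe sets.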
